A study of Mus musculus with 18 samples.

Results

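The hairpins mir-374b (mmu-mir-374b) and mir-421 (mmu-mir-421) are 2 of the 1006 miRNA precursors counted in 18 small RNA libraries. The libraries were made from Baf3, a line of mouse pro-B cells grown with interleukin-3. They were chosen by name, as a pair of neighbouring hairpins on 1 transcript, because in earlier results of these data they were lower to unequal degrees in the SAFB knockout and to like degrees in the ERH knockout. Both passed the filter on low counts that left 273 miRNAs for testing. Since the levels in both knockouts chose the pair, the differences from control and between the knockouts are given below as a description, with no test.

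All cells were stably transduced with Cas9 and 1 guide RNA, selected with puromycin for up to 5 days, and are labelled untreated. The control libraries carry the genotype Rag1_KO, the SAFB libraries Safb1 KO together with Safb2 KO, and the ERH libraries Erh KO. Each genotype had 2 guides, each guide population was sequenced in 3 labelled batches, and each genotype therefore had 6 libraries. The populations were polyclonal, and the labels describe a sort for cells in which a dsRed reporter of miR-15a activity was derepressed. Such a sort selects on lower activity of miR-15a, which comes from a clustered hairpin. How control cells were sorted is not given in the sources used here, and the targeted genes are not measured in small RNA. The 3 libraries of a population share its edited cells, so a p-value over libraries measures the spread between libraries and not between independently edited cells.

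Depth ran from 2699323 to 4470073 miRNA counts a library, and 396 to 455 precursors had a count. Levels are given in CPM, counts scaled to a common library size. The summed level of 5 miRNAs of blood cells was 147729 to 174271 CPM in control, 153249 to 170785 in SAFB and 124519 to 157415 in ERH, and mir-142a, at 109299 CPM or more in every library, made up most of it. Others in the list moved apart: mir-150 was at 15.1 to 25.0 CPM in control, 1.44 to 6.45 in SAFB and 4.67 to 11.9 in ERH, whereas mir-223 was at 7512 to 13202 CPM in control, 15012 to 21061 in SAFB and 7453 to 13078 in ERH. The summed level of 7 miRNAs of other tissues was 26.5 to 42.3 CPM in control, 78.9 to 140.3 in SAFB and 242.8 to 408.1 in ERH. Most of that sum in the knockouts was mir-9, which reached 376.4 CPM in ERH, whereas mir-133a and mir-124 were at 0 in all control libraries and at most 1.83 CPM elsewhere. The part of these miRNAs in the values below was not tested.

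A miRNA is cut out of a long primary transcript by the Microprocessor, the nuclear complex of Drosha and DGCR8. When several hairpins share a transcript, a hairpin that is cut poorly by itself can be cut better because a good substrate lies beside it, which is called cluster assistance. SAFB proteins and ERH associate with the Microprocessor and take part in this assistance, and the pair of mir-15a and mir-16 is its usual example. Both hairpins described here lie in Ftx, a long noncoding RNA gene of the X-inactivation centre on the X chromosome, near Xist.

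In build GRCm38, Mir374b lies at chrX:103573060-103573154 and Mir421 at chrX:103572921-103572996, both on the minus strand, with 63 bases between them. On the transcript mir-374b comes first. Of 12 annotated Ftx transcripts, 8 span both hairpins and none of these has an exon over either, so both are intronic. Within 10 kb of Mir374b there is 1 further miRNA gene, Mir374c, on the opposite strand at chrX:103573085-103573133, inside the Mir374b hairpin. Each of the members has 1 gene copy. The authors' build is not given in the sources used here, and these positions come from the reference annotation by gene name.

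**Figure D1:**
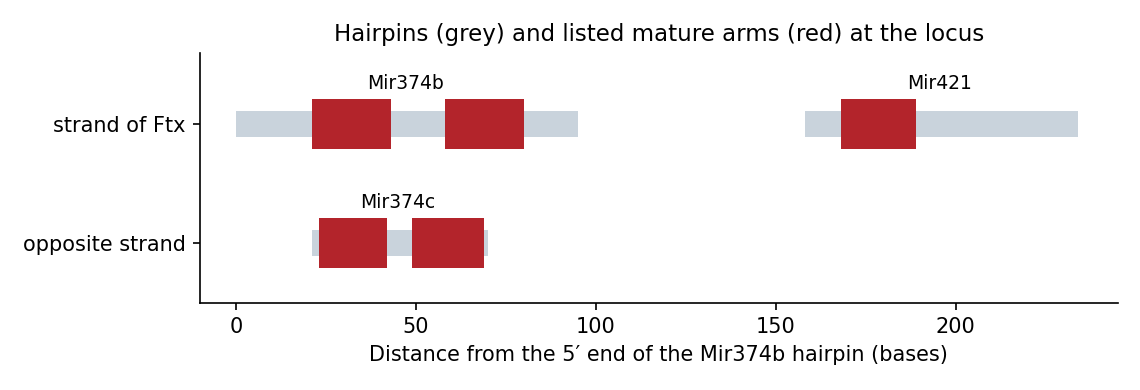
Map of the locus, with distance in bases from the 5′ end of the Mir374b hairpin on the x axis and the strand on the y axis. Grey bars are hairpins and red bars the mature arms listed in RefSeq. Mir421 follows Mir374b after 63 bases on the same strand, and Mir374c lies opposite Mir374b.

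The hairpins below, from RefSeq on GRCm38.p6, show what is counted, because reads of both arms share 1 deposited row. Capitals mark the mature arms listed there. For Mir421 only the 5p arm is listed, so miR-421-3p is unmarked although its reads would count in the same row.
Mir374b hairpin: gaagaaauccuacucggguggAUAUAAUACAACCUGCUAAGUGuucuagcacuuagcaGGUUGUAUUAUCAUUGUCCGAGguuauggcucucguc
Mir421 hairpin: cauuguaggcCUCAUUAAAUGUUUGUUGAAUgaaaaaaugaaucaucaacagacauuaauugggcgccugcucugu
The mature arms matched in the table follow (mmu-miR-421-3p is named only), with the seed (bases 2 to 8, the part that pairs first with a target) in capitals, and miR-374c-5p is added because its reads could be counted as mir-374b.
mmu-miR-374b-5p: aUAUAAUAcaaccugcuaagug
mmu-miR-374b-3p: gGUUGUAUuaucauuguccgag
mmu-miR-421-5p: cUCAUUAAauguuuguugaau
mmu-miR-374c-5p: aUAAUACAaccugcuaagug

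No 2 of these 4 printed arms share a seed, and no other of the 1679 mature miRNAs in the table has any of these seeds. The seed of miR-421-3p was not compared, and how the mir-421 counts split between its arms is not known. The whole of miR-374c-5p, 20 bases, is contained in miR-374b-5p from its base 3 on, and miR-374c-3p is contained in the Mir374b hairpin. The mir-374c row held only 0 to 19 counts against 391 to 1397 for mir-374b. Adding all mir-374c counts to mir-374b left the SAFB difference in the ratio below at -1.63 and the ERH difference at 0.11. The longest run that Mir421 shares with any of the other 1004 hairpins is 11 bases, with Mir335 and with Mir8112.

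The hairpins differ in predicted stability. RNAfold gave Mir374b a minimum free energy of -43.6 kcal/mol over 95 bases, and 14.2% of the 1005 hairpins in the table had a lower value. Mir421 was at -30.0 kcal/mol over 76 bases, and 57.5% had a lower value. Per base the energies were -0.46 for Mir374b and -0.39 for Mir421, against a median of -0.41. Both are poor in G and C, at 43.2% for Mir374b and 36.8% for Mir421 against a median of 51.7%. The predicted terminal loop was 4 bases in Mir374b and 9 in Mir421.

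In control cells both members were of middling abundance. Raw counts of mir-374b in batches 1, 2 and 3 were 1302, 1397 and 1141 with control guide 1 and 1133, 970 and 1392 with control guide 2. Raw counts of mir-421 were 612, 715 and 508 with guide 1 and 528, 564 and 685 with guide 2. By rank among all precursors, mir-374b was at 80 to 83 and mir-421 at 89 to 94 in the 6 control libraries, and together they took 0.0523% to 0.0556% of the miRNA counts. Read counts of 2 miRNAs need not reflect their molar amounts, since capture in a library differs between sequences, and the comparisons below are of a miRNA, or of the pair's ratio, between libraries.

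mir-374b, the hairpin nearer the 5′ end, was lower in both knockouts, to similar levels. Its level, in CPM scaled by the trimmed mean of M-values (TMM), ran from 367 through a median of 385 to 408 CPM in control. In SAFB it ran from 137 through 151 to 183 CPM, and in ERH from 107 through 128 to 151 CPM. All 12 knockout libraries lay below all 6 control libraries, while SAFB and ERH overlapped. The mean ± SD over 6 libraries was 386 ± 18.6 CPM for control, 155 ± 18.4 for SAFB and 126 ± 15.7 for ERH, so SAFB held 40.2% and ERH 32.7% of the control level. The fitted log2 fold change was -1.32 (SE 0.096) in SAFB and -1.61 (SE 0.097) in ERH.

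mir-421, the hairpin nearer the 3′ end, had 3 separate levels. It ran from 177 through a median of 189 to 213 CPM in control, from 56.6 through 65.9 to 74.8 CPM in ERH, and from 22.2 through 23.4 to 31.8 CPM in SAFB. No library of one genotype overlapped those of another, and the order was control, ERH, SAFB. Of the 273 miRNAs tested, 14.3% had all 6 SAFB libraries below all 6 ERH libraries. The mean was 190.2 ± 12.3 CPM in control, 66.7 ± 6.82 in ERH and 24.7 ± 3.59 in SAFB (SD, n = 6 each). SAFB thus held 13.0% of the control level and ERH 35.1%. The fitted log2 fold change was -2.94 (SE 0.11) in SAFB and -1.51 (SE 0.10) in ERH. In rank, mir-421 moved to 143 to 157 in SAFB and 127 to 136 in ERH, whereas mir-374b moved to 90 to 104 and 105 to 117.

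Among the 273 miRNAs tested, 17.2% had all 6 SAFB libraries below all 6 control libraries, and 17.9% had this in ERH. Calls at an adjusted p under 0.05 covered 56% of the miRNAs in SAFB and 53.8% in ERH (edgeR, Benjamini-Hochberg). Both members were among the miRNAs without overlap in each knockout, which is part of why they were chosen.

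**Figure D2:**
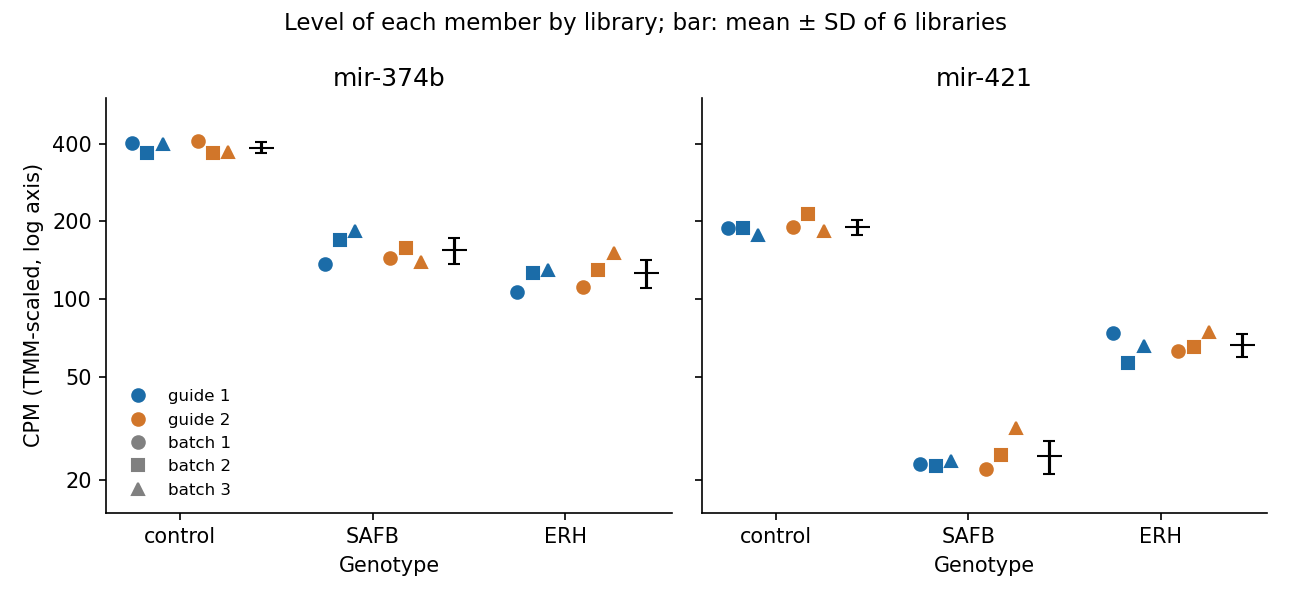
TMM-scaled CPM on a log axis for mir-374b (left) and mir-421 (right) by genotype, 1 point per library, with colour for the guide and shape for the batch and black bars for mean ± SD of 6 libraries. mir-374b is at 137 to 183 CPM in SAFB and 107 to 151 CPM in ERH. mir-421 is at 22.2 to 31.8 CPM in SAFB and 56.6 to 74.8 CPM in ERH.

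Under TMM the direct difference between the knockouts had opposite signs in the members. ERH against SAFB gave mir-421 a log2 fold change of 1.43 (SE 0.11), and mir-374b one of -0.30 (SE 0.096). Of the 273 miRNAs, 39.6% were called between the knockouts, 23.8% as higher and 15.8% as lower in ERH (edgeR), and the choice of the pair used this contrast. The mir-421 difference was also positive with libraries scaled by total counts (1.70) and by the spike-ins (1.96). The mir-374b difference was -0.031 by total counts and reversed to 0.26 by the spike-ins, so its direction depends on the scale. The median of all 273 miRNAs in ERH against SAFB was 0.042 with TMM, 0.31 with total counts and 0.57 with the spike-ins.

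Scaling also moved the size of the differences from control, though not their direction. The spike-ins are 4 synthetic RNAs mixed in a fixed amount into the total RNA. Per 100 spike-in counts, mir-374b stood at 15.4 ± 3.78 for control, 5.15 ± 0.885 for SAFB and 6.16 ± 1.82 for ERH (SD over 6 libraries). On the same scale mir-421 stood at 7.68 ± 2.43 in control, 0.827 ± 0.172 in SAFB and 3.22 ± 0.852 in ERH. With spike-in scaling the log2 fold changes were -1.58 (SE 0.25) for mir-374b and -3.21 (SE 0.27) for mir-421 in SAFB, where the median of all miRNAs was -0.23. In ERH they were -1.32 (SE 0.25) and -1.25 (SE 0.25), with a median of 0.23. On this scale the guides of a genotype stood apart in control, where mir-374b had 10.7 to 13.2 counts per 100 spike-in counts with guide 1 and 17.3 to 20.2 with guide 2, and in ERH, where it had 3.30 to 5.76 with guide 1 and 7.22 to 8.32 with guide 2.

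The count of mir-421 over that of mir-374b in the same library is free of any scaling factor. In control there were 44.5 to 58.1 mir-421 counts per 100 mir-374b counts (mean 49.4 ± 4.84, SD, n = 6). In SAFB there were 12.9 to 22.8 (16.2 ± 3.56) and in ERH 44.6 to 69.1 (53.6 ± 8.52). The SAFB libraries were all below the control and ERH libraries, and the ERH range contained most of the control range. On the log2 scale this came to -1.02 ± 0.14 for control, -2.65 ± 0.29 for SAFB and -0.91 ± 0.22 for ERH (SD over 6 libraries). SAFB minus control was -1.63, ERH minus control 0.11, and ERH minus SAFB 1.74.

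The ratio was followed library by library. With control guide 1 the log2 ratio was -1.09, -0.97 and -1.17 in batches 1, 2 and 3, and with control guide 2 it was -1.10, -0.78 and -1.02. With SAFB guide 1 it was -2.57, -2.90 and -2.95, and with SAFB guide 2 it was -2.70, -2.65 and -2.13. With ERH guide 1 it was -0.53, -1.17 and -0.97, and with ERH guide 2 it was -0.82, -0.98 and -1.01. The 2 libraries farthest from their genotype's mean were ERH guide 1 of batch 1 and SAFB guide 2 of batch 3, both on the high side.

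As a share of the counts of both members, mir-421 made up 33.0% ± 2.11 for control, 13.9% ± 2.56 for SAFB and 34.7% ± 3.45 for ERH (SD over 6 libraries). In single libraries the exact Clopper-Pearson 95% interval ran, for the highest SAFB library, from 15.8% to 21.6%, and for the lowest control library from 28.6% to 33.1%. These intervals cover counting error only, since handling of molecular identifiers is not given in the sources used here. Counting error alone would give the log2 ratio an SD of 0.072 in control, 0.16 in SAFB and 0.12 in ERH, and the observed SD was 1.88, 1.79 and 1.86 times that.

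**Figure D3:**
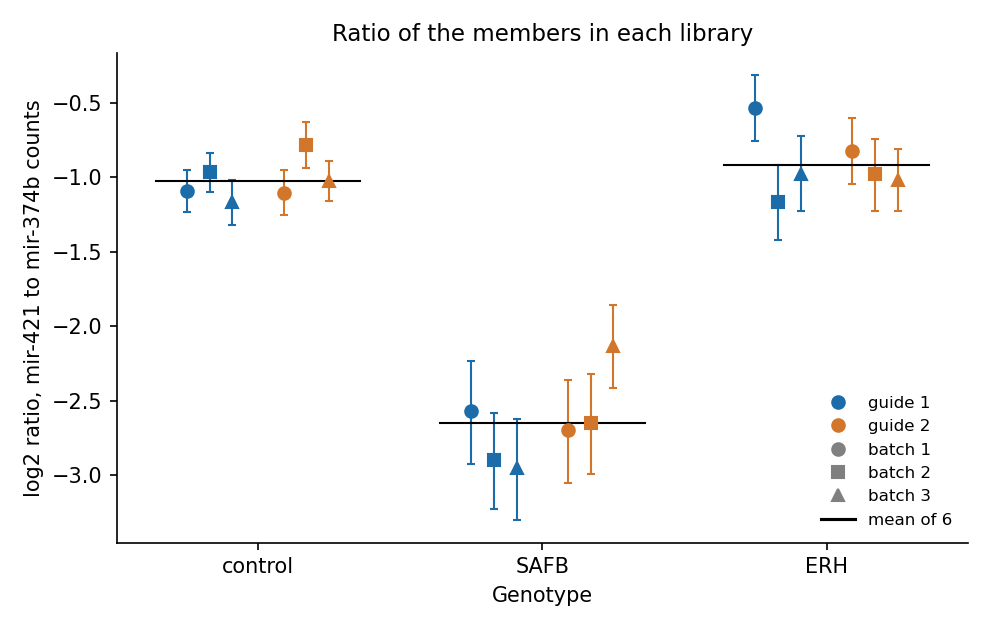
Log2 ratio of mir-421 to mir-374b counts in each library, by genotype, with exact 95% counting intervals, colour for the guide, shape for the batch and a line at the mean of 6 libraries. The SAFB libraries lie between -2.95 and -2.13, and the control and ERH libraries together between -1.17 and -0.53.

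The SAFB shift of the ratio was present in every guide and batch subset, and the ERH shift had no fixed sign. Across the 4 pairings of a SAFB with a control guide population, the difference in ratio ranged from -1.84 to -1.42. Within batches 1, 2 and 3 it was -1.54, -1.90 and -1.45. For ERH the 4 pairings gave 0.031 to 0.18, and batches 1, 2 and 3 gave 0.42, -0.20 and 0.10. Without ERH guide 1 of batch 1 the ERH difference was 0.031, and without SAFB guide 2 of batch 3 the SAFB difference was -1.73.

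The members were also followed singly by batch. In SAFB the log2 CPM difference of mir-421 was -3.07, -3.07 and -2.72 in batches 1, 2 and 3, and that of mir-374b was -1.53, -1.17 and -1.27. In ERH mir-421 was at -1.47, -1.72 and -1.36, and mir-374b at -1.89, -1.52 and -1.46. In batches 1 and 3 of ERH the mir-374b difference was the larger one, and in batch 2 that of mir-421.

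Guides of one genotype were not part of the choice and were tested. For mir-374b, the log2 fold change of guide 2 against guide 1 was -0.026 (control), -0.15 (SAFB) and 0.11 (ERH), with adjusted p of 0.969, 0.899 and 0.991 (edgeR quasi-likelihood test, Benjamini-Hochberg over 273 miRNAs). For mir-421 it was 0.080 (control), 0.19 (SAFB) and 0.049 (ERH), with adjusted p of 0.969, 0.872 and 0.991 (edgeR), and the SAFB value became 0.0045 without SAFB guide 2 of batch 3. With spike-in scaling 35.2% of all miRNAs were called between the control guides, 0% between the SAFB guides and 40.3% between the ERH guides, with median log2 fold changes of 0.63 in control and 0.63 in ERH. The spike-in share of counts was 0.274% to 0.326% with control guide 1 and 0.165% to 0.204% with control guide 2, and 0.251% to 0.363% with ERH guide 1 and 0.165% to 0.249% with ERH guide 2. The members lay near those medians on that scale, and 4 of their 6 differences passed the threshold. They were then 0.62 for mir-374b (adjusted p = 0.040) and 0.74 for mir-421 (adjusted p = 0.025) in control, and 0.70 (adjusted p = 0.027) and 0.68 (adjusted p = 0.029) in ERH (edgeR). Under TMM the guides gave 0 calls in control and 0 in SAFB, with 7 and 10 miRNAs at an unadjusted p under 0.05, and 1 call in ERH (0.366% of the miRNAs), namely mir-218, where 18 had an unadjusted p under 0.05. For the log2 ratio, guide 2 minus guide 1 was 0.11 (control), 0.31 (SAFB) and -0.047 (ERH). The exact two-sided permutation p was 0.5, 0.3 and 0.8 (adjusted 0.75, 0.75 and 0.8), where 3 against 3 libraries allow no p below 0.1. The SAFB difference became 0.13 without SAFB guide 2 of batch 3, and the control difference 0.012 without control guide 2 of batch 2.

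Batch was tested in the same way over all 18 libraries. The adjusted p was 0.622 for mir-374b (F = 1.32) and 0.920 for mir-421 (F = 0.294, edgeR), and 1 miRNA was called (0.366%), mir-146a, with 35 at an unadjusted p under 0.05. mir-374b was higher in batch 2 than in batch 1 by 0.094 and in batch 3 by 0.15 on the log2 scale, differences covered by that joint test alone. Deviations of the members from their population means showed hardly any common movement, with r = -0.060 over the 18 libraries, a description of libraries that share depth and scaling.

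The pair was set beside 26 other pairs of neighbouring hairpins, a list written with results of these data known. Neighbouring here does not mean adjacent, as the list was not checked for other hairpins lying between those of a pair. These other pairs held 50 miRNAs, of which 44 were tested. In SAFB 13 of the 44 were called higher (30.8% of all miRNAs tested were) and 16 lower (25.3% of all), with a median log2 fold change of -0.11 against 0.0083 for all 273 miRNAs. In ERH 12 were called higher (26.4% of all) and 22 lower (27.5% of all), with a median of -0.18 against -0.061 (edgeR, adjusted p under 0.05). Spike-in scaling changed these counts most, to 20 calls among the 44 in each knockout. With that scaling calls among all 273 miRNAs were also fewer, at 102 in SAFB and 91 in ERH, against 153 and 147 under TMM.

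Where both hairpins averaged 100 counts or more, 19 pairs including mir-374b and mir-421 could be followed by ratio, 11 of them with 1 gene copy for each hairpin. By the size of the change in ratio, mir-374b and mir-421 ranked 8 of 19 in SAFB and 15 of 19 in ERH. Of the other 18 pairs, 7 changed by more than 1 on the log2 scale in SAFB and 6 in ERH. Each of the 7 changed by at least 0.96 in ERH too, against 0.11 for mir-374b and mir-421, which is the pattern that led to their choice. By how much more the ratio changed in SAFB than in ERH, the pair came after mir-192 with mir-194 (1.57) and mir-29b with mir-29c (1.56) at 1.52, and mir-15a with mir-16 followed closely. mir-194, mir-29b and mir-16 each sum 2 gene copies, so those ratios do not measure a single transcript. Of pairs with 1 gene copy each, mir-191 with mir-425 came next after mir-374b with mir-421, at 1.16.

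The pairs with the greatest change of ratio in SAFB held mir-425, mir-15a, mir-192 and mir-15b, each far below its neighbour's fold change. The log2 ratio of mir-191 to mir-425 changed by 4.88 in SAFB and 3.72 in ERH, with mir-425 at -4.69 and -3.72 (log2 fold change) and mir-191 at 0.21 and -0.016. For mir-15a over mir-16 the change was -3.84 and -2.34, for mir-15b over mir-16 -3.24 and -2.99, and for mir-192 over mir-194 -3.48 and -1.91. mir-16 sums 2 gene copies and mir-194 also 2, so these ratios do not measure a single transcript.

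Some listed pairs with 1 gene copy each changed in ratio by more than 1. Besides mir-374b with mir-421, they were only mir-191 with mir-425 and mir-130b with mir-301b. mir-130b and mir-301b, like the present pair, were both lower in each knockout, with mir-130b at -2.37 and -2.49 and mir-301b at -0.62 and -0.46 (log2 fold change in SAFB and ERH). There the ratio changed by -1.75 in SAFB and -2.02 in ERH, so it was uneven in both. The other 8 single-copy pairs changed in ratio by at most 0.53 in SAFB and 0.37 in ERH. These were mir-221 with mir-222, mir-30b with mir-30d, mir-34b with mir-34c, mir-322 with mir-503, mir-99b with mir-125a, mir-182 with mir-183, mir-106b with mir-93 and mir-532 with mir-188. The last pair, with both miRNAs called lower in each knockout (edgeR), changed in ratio by 0.53 in SAFB and 0.14 in ERH. In 2 of them both miRNAs were called higher in each knockout (edgeR). mir-99b and mir-125a rose by 3.46 and 3.61 in SAFB and by 4.52 and 4.85 in ERH. Their ratio changed by -0.18 in SAFB and -0.37 in ERH. mir-182 and mir-183 rose by 3.13 and 3.49 in SAFB and by 4.45 and 4.62 in ERH. There the ratio changed by -0.32 in SAFB and -0.15 in ERH. Other hairpins of these 2 clusters were not in the list. let-7e, of the cluster of mir-99b and mir-125a, was at only 0.48 in SAFB and 0.74 in ERH. mir-96, of the cluster of mir-182 and mir-183, was at 3.20 in SAFB and 4.72 in ERH. An even ratio of a listed pair thus does not cover its whole cluster.

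**Figure D4:**
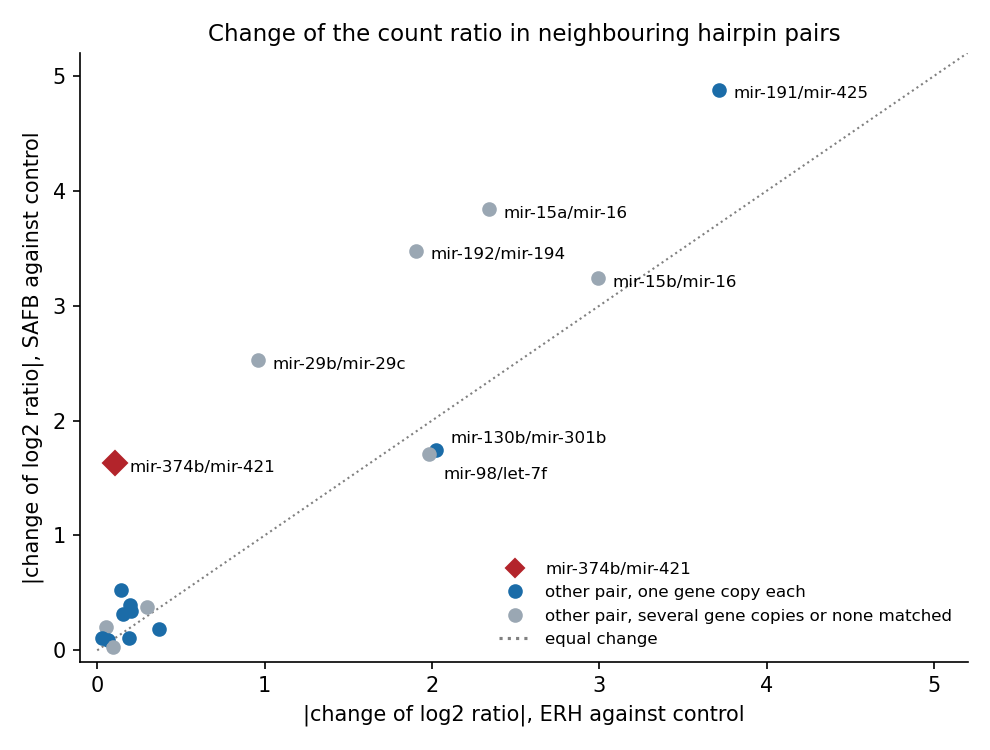
Size of the change in log2 count ratio against control in ERH (x axis) and SAFB (y axis) for 19 pairs of neighbouring hairpins, 1 point per pair, with a dotted line of equal change. mir-374b with mir-421 is at 0.11 and 1.63, and the other pairs above 1 in SAFB lie at 0.96 or more in ERH.

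The miRNAs whose level most resembled each member over the 18 libraries were different ones. Likeness was Pearson's r of log2 CPM among the 153 miRNAs that averaged 100 counts or more, and it mainly reflects the 3 genotype means, since all miRNAs share the same libraries. For mir-374b they were mir-98 (r = 0.98), mir-130b (r = 0.97) and let-7f (r = 0.97), and mir-421 came 29th of 152 (r = 0.76). For mir-421 they were mir-23b (r = 0.98), mir-29c (r = 0.98) and mir-192 (r = 0.96), and mir-374b came 26th.

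The likeness is visible in the fold changes. mir-98 was at -2.39 in SAFB and -2.81 in ERH, mir-130b at -2.37 and -2.49, and let-7f at -0.68 and -0.83, values within 0.42 of each other for each miRNA. Under TMM the log2 fold change of ERH against SAFB was -0.42 (SE 0.076) for mir-98, -0.15 (SE 0.041) for let-7f and -0.11 (SE 0.084) for mir-130b. These miRNAs were picked for levels like those of mir-374b in the same libraries, so the values are a description with no test. For mir-374b the sign of the difference between ERH and SAFB depended on the scale. mir-23b was at -1.39 in SAFB and -0.60 in ERH, mir-29c at -2.83 and -1.21, and mir-192 at -3.22 and -1.41, so that each was lower in SAFB than in ERH, as mir-421 was. Of these 6 miRNAs, 5 belong to the listed pairs of neighbours, mir-98 with let-7f, mir-130b with mir-301b, mir-29c with mir-29b and mir-192 with mir-194. The other, mir-23b, lies in a cluster with mir-27b and mir-24 that the list did not include. The mature sequences of mir-98 and let-7f, of mir-23b and mir-23a, and of mir-29c and mir-29b resemble each other, and how reads were assigned among such miRNAs is not given in the sources used here.

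**Figure D5:**
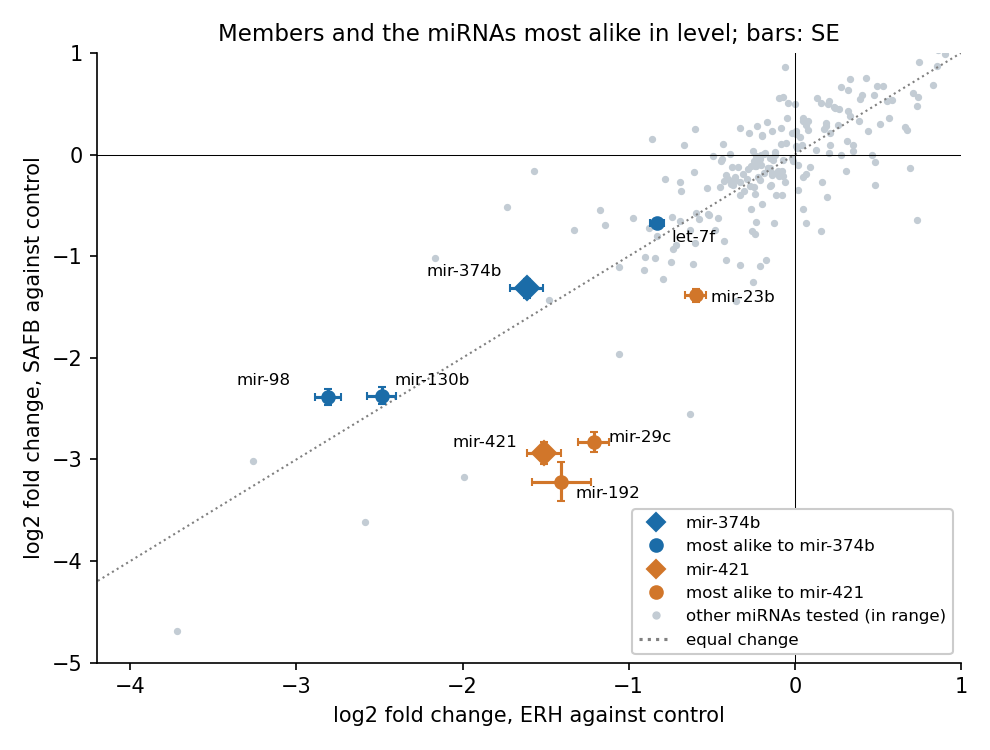
Log2 fold change in ERH (x axis) and SAFB (y axis) against control for the members (diamonds), the 3 miRNAs most alike to each (circles of the same colour, bars for SE) and other tested miRNAs within the axes (grey). mir-374b, at -1.61 and -1.32, lies close to the dotted line of equal change, and mir-421, at -1.51 and -2.94, lies below it with mir-29c and mir-192.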

How the data were processed

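The deposited table held raw counts of reads in whole numbers, with a row for each of 1006 miRNA precursors and 4 spike-ins. The submitters' processing notes name SAMtools, and the aligner, counter, build, multiply mapped reads and molecular identifiers are not given in the sources used here. Per the labels, libraries were made with a QIAseq miRNA kit from total RNA with added spike-ins. Spike-ins (0.165% to 0.366% of counts) stayed out of library sizes.

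Counts were fitted with edgeR 4.0.16 (R 4.3.3, limma 3.58.1), filterByExpr with a minimum count of 10 by population, TMM scaling and 1 mean per genotype over 18 libraries, with Benjamini-Hochberg adjustment and calls under 0.05. Guides used 1 mean per population, and batch was added for its test. An SE is the fold change over the square root of F. The ratio of raw counts was compared between guides by exact permutation (scipy 1.17.1). Hairpins were folded with RNAfold 2.7.2. The count fits were also run on simulated data, and no outcome of that is given here. DESeq2 1.42.0 was an alternative.

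The named miRNAs were the members, mir-374c, the 3 most alike to each member, and listed pairs with at least 100 mean counts in both. The members and lists were chosen with earlier results of these data known. The labels' batch number pairs libraries across populations. Over 153 miRNAs, deviations from population means correlated by 0.094 on average within a batch (45 pairs of libraries) and by -0.047 between batches (90 pairs). Deviations cancel out within a population, so the second mean largely follows from the first. Libraries of a population differed from each other by more than sampling noise (chi-square over its degrees of freedom 27.5 to 157.1). Positions and gene copies came from GENCODE M21.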

Additional observations from a re-analysis of the deposited data

Results flagged for a closer look

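Of 12 groups of 6 libraries examined, 3 had a library far from the other 5, and chance gives about 1 in 20. That rate assumes independent groups of normally distributed values. These groups are not independent, since the ratio is built from both members, and mir-374c rests on few counts. In SAFB, guide 2 of batch 3 had mir-421 at 4.99 log2 CPM against 4.47 to 4.65 in the others, so that 0.66 of the group's range lay between it and the next library. In control, guide 2 of batch 2 had mir-421 at 7.74 log2 CPM where the other 5 had 7.47 to 7.57. This left 0.625 of the range between them, barely past the cutoff. In control, guide 1 of batch 2 had mir-374c at 5.01 CPM, from 19 counts, against 0.757 to 1.40 CPM. Without the SAFB library the SAFB difference in the ratio was -1.73, and without control guide 2 of batch 2 it was -1.58.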

How the results depend on the processing

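The SAFB difference in the ratio of mir-421 to mir-374b stayed between -1.78 and -1.47 over the alternatives, and between -1.73 and -1.57 with 1 library left out. The ERH difference stayed between 0.031 and 0.16, and ERH minus SAFB between 1.58 and 1.89. With a replicate block (differences within batch) these were -1.63, 0.11 and 1.74. Each genotype has the same number of libraries in every batch, so these values had to equal those without the block. With batch as a term no guide call on the members changed. The paired exact p for the guides' ratio was 0.5 (control), 0.5 (SAFB) and 0.75 (ERH), where 3 pairs allow no p below 0.25.

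Spike-in scaling moved the members' log2 fold changes to -1.58 (mir-374b) and -3.21 (mir-421) in SAFB, to -1.32 and -1.25 in ERH, and to 0.26 (reversed) and 1.96 in ERH against SAFB. Between guides it called 96 of 273 miRNAs in control (median 0.63) and 110 in ERH (median 0.63), and the members' guide 2 minus guide 1 differences were past the threshold with them in control, 0.62 for mir-374b (reversed, edgeR adjusted p = 0.040) and 0.74 for mir-421 (adjusted p = 0.025), and in ERH, 0.70 (adjusted p = 0.027) and 0.68 (adjusted p = 0.029). The number of miRNAs called in ERH was then 91 of 273, and 20 of the listed neighbours were called. Total counts gave -1.30 for mir-374b and -1.20 for mir-421 in ERH, and -0.031 and 1.70 in ERH against SAFB. Fitting ERH and control alone gave -1.49 and -1.38. Leaving out SAFB guide 2 gave -1.12 for mir-374b in SAFB, and leaving out SAFB guide 1 gave -2.67 for mir-421. The cause of these shifts was not tested.

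With 1 library left out, the guide difference of mir-374b ranged from -0.054 to 0.066 in control and from -0.020 to 0.22 in ERH, that of mir-421 in ERH from -0.059 to 0.12, and that of the ratio in ERH from -0.18 to 0.13. In SAFB the guide difference of mir-374b ranged from -0.27 (without guide 1 of batch 1) to -0.069 (without guide 1 of batch 3) and that of mir-421 from 0.0045 (without guide 2 of batch 3) to 0.28. In control that of the ratio ranged from 0.012 (without guide 2 of batch 2) to 0.17, that of mir-421 from 0.051 to 0.15, and in SAFB that of the ratio from 0.13 to 0.43. For batch, F ranged from 0.974 to 3.53 for mir-374b (highest without control guide 2 of batch 1, edgeR adjusted p = 0.491) and from 0.0238 to 1.00 for mir-421. Over the other alternatives for batch, F ranged from 0.330 to 2.18 for mir-374b and from 0.112 to 0.493 for mir-421. None of the edgeR results among these passed the threshold, and the ratio's exact test, with at most 3 libraries against 2, could not reach it. Leaving out libraries for the guides' ratio and the batch test, and spike-in scaling for batch, were chosen after seeing the data. The share of higher calls depended on scaling: ERH against control gave 72 higher and 75 lower under TMM, 108 and 33 under total counts, and 72 and 19 under spike-ins. ERH against SAFB gave 65 higher and 43 lower under TMM, and 111 and 1 under spike-ins. SAFB against control gave 84 higher and 69 lower under TMM, and 44 and 58 under spike-ins. At 81 to 133 counts of mir-421 in SAFB, counting error alone has an SD of 0.16 in the log2 ratio.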
